A study of Mus musculus with 12 samples.

Results

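The genes described here are the metallothioneins Mt1 and Mt2, the zinc-sensing transcription factor gene Mtf1 and the zinc exporter gene Slc30a1, 4 of the 20325 genes in the deposited tables. They were picked out by their symbols, and each of the 4 was measured in every library. They were chosen with results of these data known: the level of Mt1 differed between the MEF groups in an earlier analysis, so every value that compares MEF libraries is given here as a description without a test. All 4 genes passed the filter on low counts, which kept 13936 genes.

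Metallothioneins are small cysteine-rich proteins that bind zinc, copper and cadmium, and Mt1 and Mt2 are the forms made in most mouse tissues, fibroblasts included. When free zinc in the cell increases, MTF-1, the protein encoded by Mtf1, binds metal response elements in the promoters of its target genes and raises their transcription. Mt1, Mt2 and Slc30a1 are such targets. Slc30a1 encodes ZnT1, the transporter at the plasma membrane that moves zinc out of the cell, while transporters of the Slc39 family move zinc into the cytosol. Glucocorticoids, oxidative stress and heavy metals are also known to raise metallothionein transcripts.

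The libraries hold polyadenylated RNA of mouse embryonic fibroblasts (MEFs) and of such cells on day 4 of reprogramming towards pluripotent stem cells. The cells carried an inducible cassette of the reprogramming factors (OSKM) and rtTA, the transactivator that doxycycline switches on, and both AF10 (Mllt10) alleles were floxed. AF10 is a cofactor of the histone H3 lysine 79 methyltransferase DOT1L, and SGC0946 inhibits the catalytic activity of DOT1L. MEF_fl cells (AF10 fl/fl, OSKM, rtTA) were controls and MEF_creAF10 cells (AF10 -/-, OSKM, rtTA) received Cre, with the adenoviruses Ad5-CMV-Empty and Ad5-CMV-Cre named in the labels' protocols. The day 4 groups had the same genotypes and viruses, and 2 µg/mL doxycycline was added 2 days after the virus, with DMSO (Day4_fl_DMSO and Day4_creAF10_DMSO) or with 5 µM SGC0946 (Day4_fl_SGC and Day4_creAF10_SGC). Each of the 6 groups had 2 libraries. The MEFs were kept in MEF medium, while reprogramming took place on gelatin and DR4 feeder MEFs, in medium for embryonic stem cells that held leukemia inhibitory factor. Medium, feeders and doxycycline thus changed together between MEFs and day 4. The feeders are mouse fibroblasts too, and their reads cannot be told from those of the reprogramming cells. The Cre virus was given to cells with floxed alleles alone, and an effect of the virus cannot be told apart from one of the deletion. In RNA from whole cultures, fewer cells with a transcript and less of it per cell cannot be told apart either.

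The libraries held 14602536 to 22800753 expected counts, the read counts that RSEM estimates per gene. Mllt10 was at 72.1% to 82.1% of the fl level in the AF10-deleted library of the same replicate number in all 6 pairs, so most Mllt10 reads were still present after deletion. The labels do not say what the replicate numbers stand for. Reads of 4 Y-linked genes, among them Ddx3y and Uty, summed to 4035 to 4780 expected counts in each replicate 1 library and to 8 to 52 in each replicate 2 library, so the numbers mark 2 sources of cells of different sex through all 6 groups. The p-values below therefore rest on 2 cell sources and not on many animals. Without a term for the source, they measure the spread between the 2 sources. The paired fit, described below, takes out the gap between the sources within each stage. Its p-values measure only the spread that is left. Of the marker lists, the 8 fibroblast genes summed to 40800 to 57300 CPM (counts scaled to the size of the library) in MEFs and to 16100 to 18900 CPM on day 4. The 7 macrophage and blood genes summed to 5.02 to 12.6 CPM in MEFs and to 48.3 to 72.3 CPM on day 4. Most of the day 4 sum was Laptm5, a lysosomal membrane protein gene of blood cells, with group means of 0.736 and 0.804 CPM in MEFs and of 43.6 to 50.2 CPM on day 4. The group means of Lyz2, Cd68, Emr1 and Tyrobp were also higher on day 4. Lyz2 was at means of 3.14 CPM in MEF_fl and 14.2 CPM in Day4_fl_DMSO, and Cd68 at 1.89 and 4.9 CPM. Csf1r, the macrophage growth factor receptor, was at means of 1.44 and 1.70 CPM in MEFs and of 0.861 to 1.18 CPM on day 4. Of the 6 genes of this list that passed the count filter, 5 had a positive log2 change between group levels from MEFs to day 4 in DMSO in either genotype. Csf1r had a negative one. In replicate 1 of the AF10-deleted cells, however, Lyz2, Emr1 and Tyrobp were lower on day 4 in DMSO. They were at 6.07, 0.396 and 0.33 CPM, against 6.67, 0.539 and 0.404 CPM in MEFs. Ptprc, which did not pass the filter, had group means of at most 0.421 CPM.

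The promoter sequences of the metallothioneins and of Slc30a1 are shown because these are the genes through which MTF-1 activity is usually read. Each is the stretch of 250 bases before the start of the gene in RefSeq, build GRCm38.p6, plus strand, printed 5′ to 3′. The windows are chr8:94178839-94179088 for Mt1, chr8:94172368-94172617 for Mt2 and chr1:191906531-191906780 for Slc30a1. Capitals mark the core of the metal response element, searched on both strands as TGCACNC and TGCGCNC.
Mt1 promoter: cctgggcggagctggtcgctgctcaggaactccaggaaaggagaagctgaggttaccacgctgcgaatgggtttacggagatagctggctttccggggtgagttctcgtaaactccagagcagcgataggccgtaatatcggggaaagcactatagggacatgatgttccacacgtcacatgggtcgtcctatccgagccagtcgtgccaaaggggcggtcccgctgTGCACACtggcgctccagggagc
Mt2 promoter: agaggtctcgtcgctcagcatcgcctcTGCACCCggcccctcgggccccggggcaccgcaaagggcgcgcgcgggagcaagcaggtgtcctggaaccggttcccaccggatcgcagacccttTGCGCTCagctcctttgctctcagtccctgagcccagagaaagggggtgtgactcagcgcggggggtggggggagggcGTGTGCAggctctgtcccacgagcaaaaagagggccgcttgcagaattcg
Slc30a1 promoter: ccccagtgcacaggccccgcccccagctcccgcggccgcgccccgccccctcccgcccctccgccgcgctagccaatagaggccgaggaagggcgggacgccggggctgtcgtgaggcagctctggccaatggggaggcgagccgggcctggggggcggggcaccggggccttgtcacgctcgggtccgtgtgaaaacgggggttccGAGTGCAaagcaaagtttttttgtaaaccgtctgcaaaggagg
The Mt2 window held 3 matches, at positions -223, -128 and -50 counted from the first base of each match to the RefSeq start. Mt1 had 1 match at -23, Slc30a1 had 1 at -43, and the window of Mtf1 at chr4:124802299-124802548 held 0. Of 32851 RefSeq promoter windows of this length, 21.4% held at least 1 match and 1.26% held at least 3. The antioxidant response element core, TGACNNNGC, which Nrf2 family factors bind, matched once in Mt2 and once in Slc30a1 and in 10.2% of all windows, without overlap with the metal response element matches. The E-box CACGTG, which USF factors bind, matched in none of the 4 windows and in 6.02% of all. A match is a stretch of letters and not a measured binding site. The annotations also differ in where these genes begin. GENCODE vM21 starts its 3 Mt1 transcripts 7 bases before and 122 and 152 bases after the RefSeq start, so the Mt1 window may lie upstream of the promoter in use. It starts Mt2 transcripts 46 and 242 bases after the RefSeq start, and Slc30a1 transcripts 14 bases before and 475 bases after it. The same limit thus holds for the match counts and positions of Mt2 and Slc30a1. Mt2 and Mt1 lie next to each other on chromosome 8, downstream of Mt4 and Mt3.

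Mt1 and Mt2 were the abundant metallothioneins of these cells. Mt1 and Mt2 together made up 0.0468% to 0.285% of the summed deposited TPM values, a scale corrected for transcript length. Mtf1 and Slc30a1 were lower by far on the TPM scale, at 5.16 to 10.2 TPM for Mtf1 and 5.93 to 12.6 TPM for Slc30a1 across the 12 libraries. Mt3, the metallothionein known from neurons, reached at most 4.38 TPM. Mt4, known from stratified epithelia, reached at most 2.66 TPM and was at 0 in both MEF_fl libraries. Mt3 passed the count filter with 2.14 to 16.1 expected counts per library, and Mt4, with 0 to 7, did not.

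Mt1 was lowest in MEF_fl and highest in MEF_creAF10. In MEF_fl its level was 61.1 CPM in replicate 1 and 121 CPM in replicate 2. In MEF_creAF10 it was 380 and 552 CPM. On day 4 it was 232 and 135 CPM in Day4_fl_DMSO, 264 and 154 CPM in Day4_fl_SGC, 317 and 210 CPM in Day4_creAF10_DMSO, and 320 and 219 CPM in Day4_creAF10_SGC. The group means in CPM, from low to high, were 91.1 ± 42.6 (SD, n = 2) in MEF_fl, 183 ± 68.4 in Day4_fl_DMSO, 209 ± 77.4 in Day4_fl_SGC, 263 ± 75.7 in Day4_creAF10_DMSO, 269 ± 71.0 in Day4_creAF10_SGC and 466 ± 122 in MEF_creAF10. Neighbouring day 4 groups overlapped in this order, whereas both MEF_fl libraries lay below every other library and both MEF_creAF10 libraries lay above every other one.

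Mt2 had another order, with both MEF groups at the bottom. Its level was 48.1 and 77.6 CPM in MEF_fl and 72.1 and 79.6 CPM in MEF_creAF10, which overlapped. On day 4 it was 238 and 140 CPM in Day4_fl_DMSO, 320 and 212 CPM in Day4_fl_SGC, 351 and 206 CPM in Day4_creAF10_DMSO, and 343 and 242 CPM in Day4_creAF10_SGC. The means in CPM were 62.9 ± 20.8 (SD, n = 2), 75.8 ± 5.30, 189 ± 69.2, 266 ± 76.6, 278 ± 102 and 292 ± 71.7, in that order of groups. Every day 4 library was above every MEF library, and neighbouring day 4 groups overlapped.

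Mtf1 and Slc30a1 went the other way, with every MEF library above every day 4 library. Mtf1 was at 33.1 and 35.3 CPM in MEF_fl and at 31.1 and 33.7 CPM in MEF_creAF10, against 19.8 to 24.3 CPM over the 8 day 4 libraries. The 2 Day4_creAF10_DMSO libraries, at 21.8 and 22 CPM, lay below both Day4_fl_SGC libraries, at 22.8 and 23.1 CPM. The other neighbouring groups of the same stage overlapped for Mtf1. Slc30a1 was at 28.3 and 29.7 CPM in MEF_fl and at 29.7 and 24.7 CPM in MEF_creAF10, against 15.6 to 22 CPM on day 4, where neighbouring groups overlapped.

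**Figure D1:**
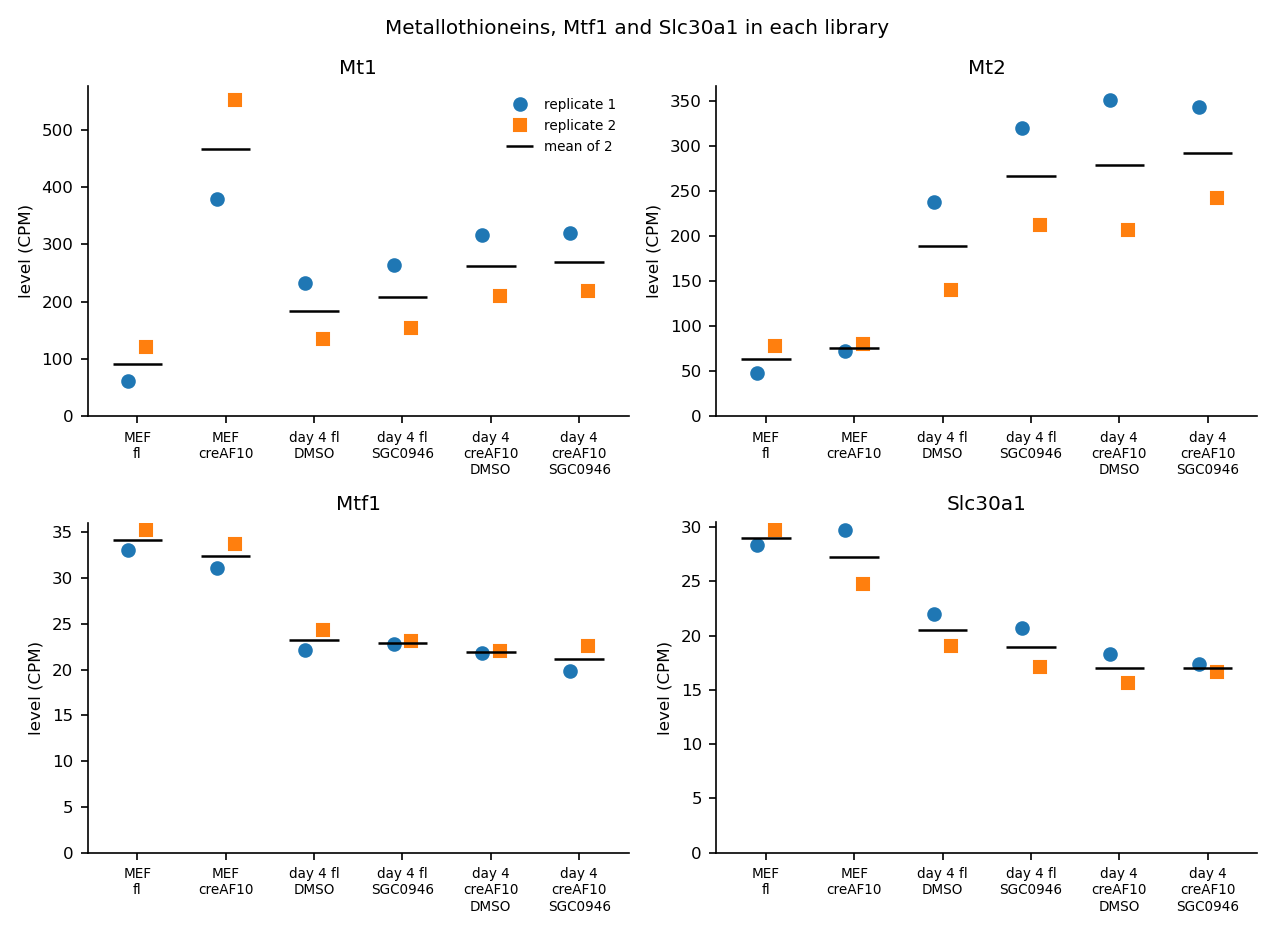
Level in CPM (vertical axes, each starting at 0) of the 4 genes in the 6 groups, with circles for replicate 1, squares for replicate 2 and a bar for the mean of the 2 libraries. Mt1 stands at 380 and 552 CPM in MEF_creAF10, above all other libraries, while Mt2 is at 48.1 to 79.6 CPM in the 4 MEF libraries and at 140 CPM or more on day 4.

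The replicate sources differed in both metallothioneins, and the difference had opposite directions in the stages. In MEFs, replicate 2 was above replicate 1 by 1.99 times in MEF_fl and 1.45 times in MEF_creAF10 for Mt1, and by 1.61 and 1.1 times for Mt2. On day 4, replicate 1 was above replicate 2 in all 4 groups, by 1.46 to 1.72 times for Mt1 and by 1.42 to 1.70 times for Mt2. These gaps between replicates were of the same size as the day 4 effects described below.

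The question put to the MEFs was what AF10 deletion changes before reprogramming. Mt1 was higher in MEF_creAF10 than in MEF_fl by 6.23 times in replicate 1 and 4.56 times in replicate 2, a log2 change of 2.36 ± 0.46 (SE, 1 term per group), and this contrast was the one in which it was picked. MEF_creAF10 had received Ad5-CMV-Cre and MEF_fl had not. Some Cre expression cassettes end in the polyadenylation sequence of mouse Mt1, and whether this virus holds one is not given in the sources used here. Reads of such DNA would be counted as Mt1 and cannot be told apart from reads of the cells' own gene, and their part in the Mt1 values of the Cre-treated groups was not tested. By size, its log2 change ranked 17 from the top of 13936 genes, whose median was -0.004. Mt2, the neighbouring gene, was higher by 1.5 times in replicate 1 and 1.03 times in replicate 2, a log2 change of 0.27 ± 0.39. Mtf1 was at 0.941 and 0.953 times the fl level, and Slc30a1 at 1.05 and 0.832 times. Without MEF_fl replicate 1 or any other single MEF library, the log2 change of Mt1 was between 1.94 and 2.93.

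The ratio of Mt1 to Mt2 on the TPM scale set MEF_creAF10 apart from the other groups. It was 1.31 and 1.61 in MEF_fl and 5.42 and 7.14 in MEF_creAF10. On day 4 it was 1.00 and 0.994 in Day4_fl_DMSO, 0.847 and 0.748 in Day4_fl_SGC, 0.929 and 1.05 in Day4_creAF10_DMSO, and 0.959 and 0.934 in Day4_creAF10_SGC. On day 4 in DMSO the AF10-deleted libraries lay on either side of the fl libraries, and in SGC0946 both AF10-deleted libraries were above both fl ones. The ratio is given without a test, since it uses the values that picked Mt1. The tables hold 1 value for Mt1 per library, from a transcript of 542 bases, so the part of the transcript that its reads covered was not analysed here, and the limit from the Cre virus holds for these ratios too. In the longest protein-coding GENCODE vM21 transcript of Mt1, of 1085 bases, no stretch of 50 bases was shared with Mt2 or another gene. The counted transcript of 542 bases was not itself searched.

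**Figure D2:**
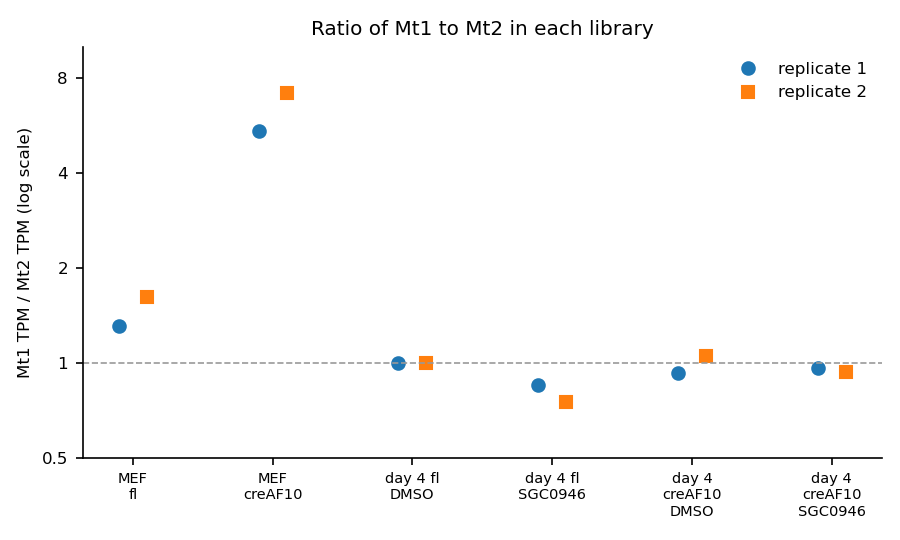
Ratio of Mt1 TPM to Mt2 TPM (vertical axis, log scale) in each of the 12 libraries by group, circles for replicate 1 and squares for replicate 2, with a dashed line at a ratio of 1. The MEF_creAF10 libraries are at 5.42 and 7.14, the MEF_fl libraries at 1.31 and 1.61, and the day 4 libraries between 0.748 and 1.05.

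Other zinc and metal genes were not called in MEFs after AF10 deletion. The first fit, edgeR's quasi-likelihood test with 1 term per group and Benjamini-Hochberg adjustment, called 0.0% of all genes there, with 300 genes at an unadjusted p under 0.05, and DESeq2 called 18 genes. A fit that also has the replicate number within each stage as a block, called the paired fit below, called 0.962% of all genes. In both fits and by DESeq2, 0 of the 6 tested Slc30 zinc exporters other than Slc30a1, 0 of the 10 tested Slc39 zinc importers and 0 of 8 further MTF-1 targets were called. At an unadjusted p under 0.05 these lists had 0 genes in either fit. The median log2 change was 0.00 in the exporters, -0.01 in the importers and -0.03 in the MTF-1 targets, against -0.004 in all genes. Of 10 tested copper handling, 9 iron handling, 12 oxidative stress, 10 heat shock and 9 glucocorticoid-responsive genes, 0 were called in either fit or by DESeq2, and 1 of them, a copper gene, had an unadjusted p under 0.05 in the first fit. In the paired fit 2 copper handling, 2 heat shock and 2 glucocorticoid-responsive genes did. The lists overlap, here and below. Slc39a10 is among both the importers and the MTF-1 targets, Slc40a1 among the targets and the iron handling genes, and Gclc among the targets and the oxidative stress genes.

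The day 4 groups were compared with the MEFs of the same genotype to show what reprogramming changes. In fl cells Mt2 was higher on day 4 by 4.94 times in replicate 1 and 1.80 times in replicate 2, a log2 change of 1.59 ± 0.39 (SE). In AF10-deleted cells it was higher by 4.87 and 2.59 times, a log2 change of 1.87 ± 0.39. Mt2 was thus higher on day 4 in all 4 pairs, more so in replicate 1 than in replicate 2. Mt1 was higher on day 4 in fl cells, by 3.80 and 1.11 times (log2 change 1.01 ± 0.45). In AF10-deleted cells Mt1 was lower on day 4, at 0.833 and 0.380 times the MEF level (log2 change -0.83 ± 0.44). Its level on day 4 therefore lay between those of the MEF groups.

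Mtf1 was lower on day 4 by a like amount in each pair. In fl cells it was at 0.669 and 0.688 times the MEF level, a log2 change of -0.56 ± 0.10, and in AF10-deleted cells at 0.700 and 0.652 times, a log2 change of -0.57 ± 0.10. Slc30a1 was at 0.776 and 0.641 times the MEF level in fl cells (-0.50 ± 0.14) and at 0.616 and 0.634 times in AF10-deleted cells (-0.68 ± 0.14). Slc30a1 and Mt2, both MTF-1 targets, thus differed in opposite directions between stages. These values have no test. They sit beside a wide change of the transcriptome, in which the first fit called 52.0% of all genes in fl cells (25.7% higher and 26.3% lower) and 55% after AF10 deletion (27.5% in either direction), and the paired fit 68.2% and 70.3%. The lower sum of fibroblast markers and the higher group means of Laptm5 and most other blood cell markers given above belong to the same contrast. Their part in the metallothionein values was not tested.

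Zinc transporters other than Slc30a1 were compared between day 4 and MEFs in fl cells, where 25.7% of all genes were higher and 26.3% lower in the first fit and 68.2% were called in the paired fit. For day 4 against MEFs, here and below, the paired calls say nothing on how alike the 2 sources were. Of the 6 tested exporters other than Slc30a1, 2 fell and 0 rose in the first fit, and 5 fell in the paired fit, with a median log2 change of -0.28 against 0.014 in all genes. Those called in the first fit were Slc30a7 (-0.43 ± 0.089, SE, n = 2 per group) and Slc30a5 (-0.28 ± 0.089), which load zinc into the secretory pathway. Of the 10 tested importers, 6 fell and 2 rose (8 and 2 in the paired fit), with a median of -0.64. Slc39a6, a plasma membrane importer, fell by 0.76 on the log2 scale (SE 0.090, edgeR adjusted p = 9.75e-05), and Slc39a13, which releases zinc from intracellular stores and is needed for connective tissue, fell by 0.66 (SE 0.094, edgeR adjusted p = 0.000314). Slc39a7, the most abundant Slc39 gene of the MEFs at 314 TPM in MEF_fl, releases zinc from the endoplasmic reticulum and fell by 0.88 (SE 0.11).

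The importers that rose on day 4 were Slc39a14 and Slc39a10. Slc39a14, which also carries iron and manganese and is induced in inflammation, was at 64.6 and 55.9 CPM in MEF_fl and at 132 and 134 CPM in Day4_fl_DMSO, and it rose by 1.14 ± 0.094 (log2, edgeR adjusted p = 1.07e-05). Slc39a10, which active MTF-1 is known to repress, was at 59.2 and 68.1 CPM in MEF_fl and at 111 and 87.1 CPM in Day4_fl_DMSO, and it rose by 0.63 ± 0.17 (edgeR adjusted p = 0.0116). In AF10-deleted cells 2 of 10 importers rose and 7 fell, and 2 of 6 exporters fell, in the first fit. Of all genes, 27.5% were higher and 27.5% lower there. Slc39a14 was at 1.1 ± 0.094 and Slc39a10 at 0.58 ± 0.17. Slc30a4, the exporter that moves zinc into endosomal vesicles, was at -0.27 ± 0.13 in fl cells and was called in the paired fit and not in the first (edgeR adjusted p = 0.000831 and 0.109). The paired p does not measure how alike the 2 sources were.

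Of the 8 further MTF-1 targets, 2 rose and 3 fell on day 4 in fl cells, beside 25.7% and 26.3% of all genes, with a median log2 change of -0.08 against 0.014 in all genes. The selenoprotein gene 2700094K13Rik (Selenoh) rose by 1.26 ± 0.19 and Slc39a10 by the amount given above. Since Slc39a10 is a target that MTF-1 represses, the counts and the median of this list do not stand for a single direction of MTF-1 activity. The iron exporter gene Slc40a1 fell by 1.54 (SE 0.34) and the placental growth factor gene Pgf by 3.10 (SE 0.45). In AF10-deleted cells 2 of the 8 rose and 2 fell, beside 27.5% of all genes in each direction. In the paired fit 2 rose and 3 fell, beside 70.3% of all genes called.

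Lists for other inducers of metallothioneins and for other metals were read against the same 25.7% of all genes higher and 26.3% lower. Of 9 glucocorticoid-responsive genes 2 rose and 3 fell on day 4 in fl cells, with the transcription factor gene Cebpd at 2.96 ± 0.19 and Fkbp5, a cochaperone of the glucocorticoid receptor, at 1.17 ± 0.33. Sgk1, a kinase gene, was at -1.81 ± 0.21 and Nr3c1, which encodes the glucocorticoid receptor, at -0.53 ± 0.073. Of 12 oxidative stress genes 5 rose and 4 fell, among them glutathione reductase Gsr at 1.16 ± 0.27 and sulfiredoxin Srxn1 at -1.03 ± 0.14. Of 10 heat shock genes 4 rose and 4 fell, with the constitutive chaperone Hspa8 at 1.17 ± 0.093 and the inducible Hspa1a at -1.76 ± 0.18. Of 10 copper handling genes 2 rose and 1 fell, with Sod1, the copper and zinc superoxide dismutase, at 1.13 ± 0.094, Cox17, a copper chaperone of mitochondria, at 0.62 ± 0.15 and the copper exporter Atp7a at -0.57 ± 0.092. Of 9 iron handling genes 1 rose and 4 fell, with the transferrin receptor Tfrc at 1.08 ± 0.27 and Steap3, a ferrireductase, at -1.29 ± 0.16.

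**Figure D3:**
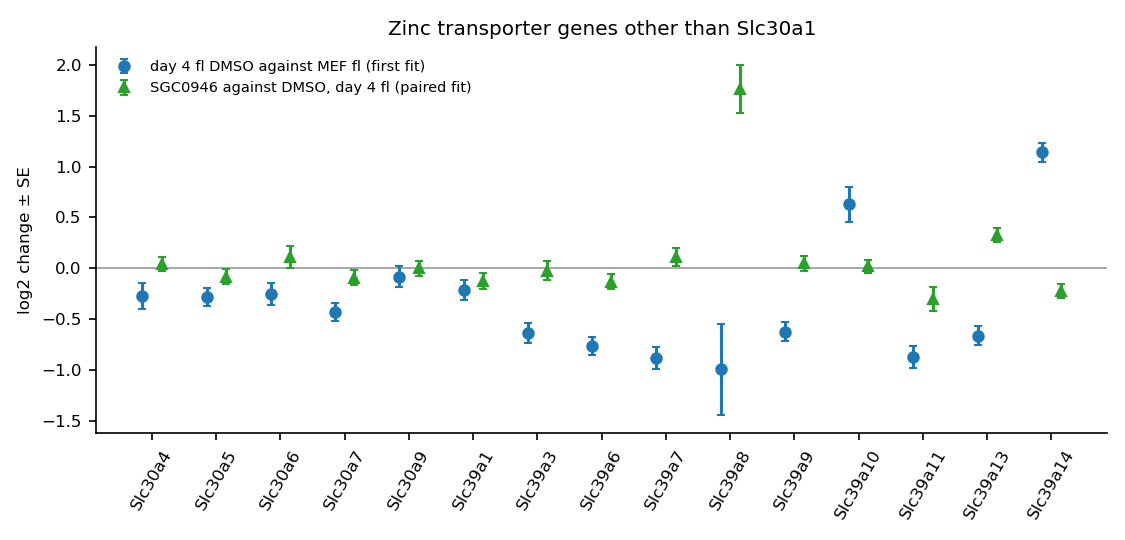
Log2 change ± SE (vertical axis) of the zinc transporter genes tested other than Slc30a1 and the sparsely counted Slc30a3, for day 4 fl DMSO against MEF fl in the first fit (circles) and for SGC0946 against DMSO on day 4 in fl cells in the paired fit (triangles). Slc39a14 at 1.14 and Slc39a10 at 0.63 are above 0 on day 4 while the other genes are below 0, and Slc39a8 at 1.76 has the largest SGC0946 change of those plotted.

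On day 4 in DMSO, AF10-deleted cells were compared with fl cells to show the effect of the deletion during reprogramming. Their libraries were not part of the MEF contrast by which Mt1 was picked. The members and fits were still chosen with earlier results of these data known. Mt1 was higher in the AF10-deleted library of both pairs, by 1.37 and 1.55 times, and Mt2 by 1.48 and 1.47 times. The groups overlapped for both genes when the pairs were ignored, and the first fit called neither, with log2 changes of 0.52 ± 0.44 for Mt1 and 0.56 ± 0.38 for Mt2 (edgeR adjusted p = 0.893 and 0.836). Both rose in the paired fit, Mt1 by 0.54 ± 0.086 (edgeR adjusted p = 0.000597) and Mt2 by 0.56 ± 0.095 (edgeR adjusted p = 0.00233). With 1 replicate block over both stages neither was called (edgeR adjusted p = 0.773 and 0.655). DESeq2 called neither (adjusted p = 0.978 and 0.897). The first fit called 0.0% of all genes here, with 988 at an unadjusted p under 0.05 and 12 called by DESeq2, and the paired fit called 6.74%, of which 3.37% of all genes rose. Leaving out 1 of the 4 libraries in the paired fit left log2 changes of 0.46 to 0.61 for Mt1 and 0.48 to 0.63 for Mt2, and each was called in 3 of the 4 cases, with adjusted p values up to 0.0635 and 0.0882.

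Slc30a1 was lower in both pairs, at 0.831 and 0.822 times the fl level, and was not called in either fit (log2 change -0.27 ± 0.11 in the paired fit, edgeR adjusted p = 0.129). Mtf1 was at 0.985 and 0.903 times the fl level (paired edgeR adjusted p = 0.659). Of the 10 importers only Slc39a13 was called, in the paired fit and not in the first, with a rise of 0.28 ± 0.071 (paired edgeR adjusted p = 0.0159), and 0 of the 6 exporters and 0 of the 8 further MTF-1 targets were called in either fit. At an unadjusted p under 0.05 the exporters and targets had 0 genes in either fit, and DESeq2 called 0 in each list. Of 10 heat shock genes the paired fit called 1 as higher, the small heat shock protein gene Hspb1 (0.60 ± 0.12). Of 9 glucocorticoid-responsive genes it called 2 as higher, Errfi1 (0.45 ± 0.070) and Cebpd (0.27 ± 0.072). It called 1 of 10 copper handling genes, Atp7a (-0.32 ± 0.084), and 1 of 9 iron handling genes, Steap3 (-0.38 ± 0.070), as lower. Of 12 oxidative stress genes it called 0. These counts stand beside 6.74% of all genes. In these lists the first fit and DESeq2 called 0 genes.

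Under SGC0946 neither Mt1 nor Mt2 was called for the deletion, and the test of the difference from DMSO is given with the interaction. Mt1 was higher in AF10-deleted cells by 1.21 and 1.42 times (paired log2 change 0.39 ± 0.086, edgeR adjusted p = 0.0732) and Mt2 by 1.07 and 1.14 times (0.14 ± 0.095, edgeR adjusted p = 0.776). The 95% intervals around these paired log2 changes ran from 0.22 to 0.56 for Mt1 and from -0.04 to 0.33 for Mt2. Such intervals, here and below, are not adjusted for the number of genes. Slc30a1 was at 0.841 and 0.974 times and Mtf1 at 0.872 and 0.980 times the fl level. Of all genes, 0.0% were called in the first fit, with 251 at an unadjusted p under 0.05 and 2 called by DESeq2, and 0.172% in the paired fit. Of the zinc, metal and stress lists 0 genes were called in either fit or by DESeq2, and 1 of their genes, in the oxidative stress list, had an unadjusted p under 0.05 in the first fit. In the paired fit 1 copper handling, 1 iron handling, 1 oxidative stress, 1 heat shock and 2 glucocorticoid-responsive genes did.

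SGC0946 was compared with DMSO on day 4 to show the effect of blocking DOT1L activity. In fl cells Mt2 was higher with the inhibitor by 1.35 and 1.52 times and Mt1 by 1.14 times in both pairs. The first fit called neither (Mt2 0.50 ± 0.38, edgeR adjusted p = 0.655, and Mt1 0.19 ± 0.44, edgeR adjusted p = 0.918). In the paired fit Mt2 rose by 0.51 ± 0.095 (edgeR adjusted p = 0.00100), and it was called in all 4 cases with 1 library left out (log2 change 0.44 to 0.58). With 1 replicate block over both stages Mt2 was not called (edgeR adjusted p = 0.56), nor was it by DESeq2 (adjusted p = 0.834). Mt1 was not called in the paired fit, at 0.19 ± 0.086 (edgeR adjusted p = 0.148). Whether the 2 genes differed in their response was not tested. The first fit called 1.11% of all genes and the paired fit 17.7%, and 10.6% of all genes rose in the latter. The first fit's 155 genes became 1 to 5 when any 1 of the 4 libraries was left out. Mtf1, at 1.03 and 0.949 times, and Slc30a1, at 0.942 and 0.897 times the DMSO level, were not called in either fit (paired edgeR adjusted p = 0.928 and 0.505).

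The zinc importer gene Slc39a8, whose product also carries manganese and iron and is induced by inflammatory signals, had the largest change among the transporters under SGC0946 in fl cells. It was at 1.44 and 1.24 CPM in Day4_fl_DMSO and at 5.36 and 3.76 CPM in Day4_fl_SGC, so both inhibitor libraries were above both controls. Its log2 change was 1.77 ± 0.44 in the first fit, which did not call it (edgeR adjusted p = 0.111), and it rose by 1.76 ± 0.24 in the paired fit (edgeR adjusted p = 3.89e-06). Slc39a13 rose by 0.33 ± 0.071 and Slc39a14 fell by 0.22 (SE 0.066) in the paired fit only. Of the further MTF-1 targets Slc40a1 rose in the paired fit, by 0.66 ± 0.10, and 0 of the 6 exporters were called in either fit or by DESeq2, with 0 at an unadjusted p under 0.05. Of the 9 glucocorticoid-responsive genes 4 rose in the paired fit, among them Errfi1 (0.58 ± 0.070) and Cebpd (0.44 ± 0.072), and of the 10 heat shock genes 3 rose and 1 fell, with Hspb1 at 1.08 ± 0.11. The paired fit called 0 of 10 copper handling genes as higher and 1 as lower. Of 9 iron handling genes it called 1 as higher (Slc40a1 again) and 1 as lower, and of 12 oxidative stress genes 1 and 1. These counts stand beside 17.7% of all genes in either direction. The first fit called 0 genes of these lists, with 4 importers, 2 glucocorticoid-responsive genes and 3 heat shock genes and 1 gene each of the copper, iron and oxidative stress lists at an unadjusted p under 0.05, and DESeq2 called 1 importer and 1 heat shock gene.

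In AF10-deleted cells neither Mt1 nor Mt2 was called for the inhibitor. Mt1 was at 1.01 and 1.05 times the DMSO level (paired log2 change 0.04 ± 0.085, edgeR adjusted p = 0.866) and Mt2 at 0.978 and 1.17 times (0.10 ± 0.094, edgeR adjusted p = 0.640). The 95% intervals ran from -0.13 to 0.21 for Mt1 and from -0.09 to 0.28 for Mt2. The sparsely counted Mt3 had log2 changes with SGC0946 of 1.11 in fl and 1.17 in AF10-deleted cells in the first fit. It was not called in either genotype by either fit or by DESeq2. Its unadjusted p was under 0.05 in the paired fit in both genotypes, and not in the first. Of all genes, the first fit called 0.00718% and the paired fit 7.75%. Slc39a8 was at 2.05 and 1.90 CPM in Day4_creAF10_DMSO and at 4.55 and 4.85 CPM in Day4_creAF10_SGC, and it rose in the paired fit by 1.24 ± 0.22 (edgeR adjusted p = 0.000517) but was not called in the first (edgeR adjusted p = 0.580). In the paired fit 2 of 10 heat shock genes rose, among them Hspb1 (0.55 ± 0.11). So did 1 of 9 glucocorticoid-responsive and 1 of 12 oxidative stress genes. Slc40a1 (0.48 ± 0.10) was the only gene called of 8 further MTF-1 targets and of 9 iron handling genes. Slc39a8 was the only one of 10 importers, and 0 of 6 exporters and 0 of 10 copper handling genes were called. In these lists 0 genes fell in the paired fit, and 0 were called in the first fit or by DESeq2.

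The interaction, the deletion effect in SGC0946 minus that in DMSO, was negative for both metallothioneins and was called for neither in either fit. For Mt2 it was -0.46 and -0.37 on the log2 scale in the pairs (paired fit -0.42 ± 0.13, edgeR adjusted p = 0.227), and for Mt1 -0.17 and -0.13 (paired fit -0.15 ± 0.12, edgeR adjusted p = 0.734). The 95% interval ran from -0.68 to -0.15 for Mt2 and from -0.39 to 0.09 for Mt1. For the interaction 0.0% of all genes were called in the first fit, with 303 at an unadjusted p under 0.05 and 2 called by DESeq2, and 0.395% in the paired fit. The deletion and the inhibitor effects in fl cells share the Day4_fl_DMSO libraries.

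**Figure D4:**
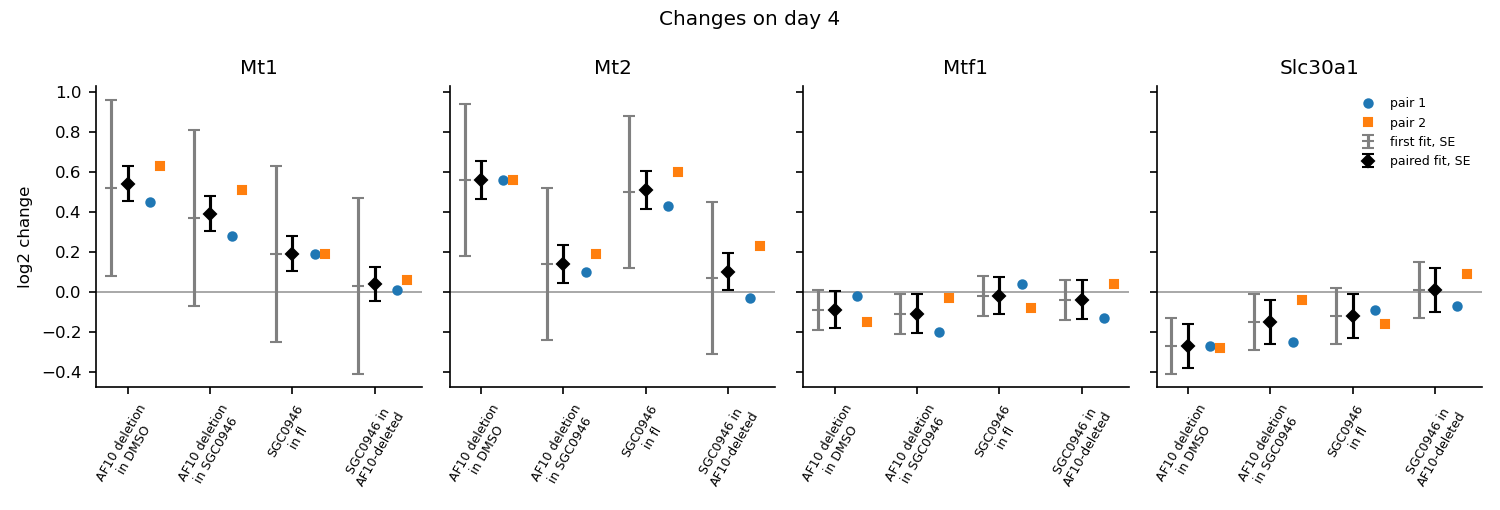
Log2 change (vertical axis) of the 4 genes for AF10 deletion and for SGC0946 on day 4, with the first fit and its SE in grey, the paired fit and its SE in black, and the changes within replicate pair 1 (circles) and pair 2 (squares). For Mt1 and Mt2 the SE of the first fit is 0.44 and 0.38, against 0.086 and 0.095 in the paired fit for deletion in DMSO, where all 4 within-pair values are above 0.

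Genes with a pattern like that of Mt1 were sought by the Pearson correlation of log2 CPM over the 12 libraries, which share sources and stages, among 13935 genes. The highest were Mad2l2 (r = 0.844), Cyth1 (0.826), Ccdc106 (0.811), Plaa (0.789) and Prr3 (0.788), and Mt2 ranked 707 with 0.349. After the mean of each stage and replicate number was taken out, they were Pitpnm3 (0.945), Lgals4 (0.942), Tesk2 (0.940), Cyth1 (0.940) and Ddt (0.939), and Mt2 ranked 557 with 0.582. The gap between the MEF groups, by which Mt1 was picked, enters both rankings. At log2 changes of 2.64 and 2.19 in the pairs, it is the largest part of the second. The r values for Mt1 are thus a description without a test. Mad2l2 itself ranged only from 10.6 to 13.2 CPM. For Mt2 the highest were Arntl2 (0.984), C1s (0.982), Hdac6 (0.981), Tha1 (0.980) and Rpgrip1 (0.978), with Mtf1 at -0.938 and Slc30a1 at -0.816, values that follow the split between MEFs and day 4. With stage and source taken out they were Rgs2 (0.971), EG214403 (0.966), Sat1 (0.961), Hist1h1c (0.957) and Pop4 (0.954). Sat1 encodes an acetyltransferase of polyamines and Rgs2 a regulator of G protein signalling.

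Some reads of the other members can belong to partner genes, since the library kit does not mark strand. Windows of 50 bases were taken from the longest protein-coding GENCODE vM21 transcript of each gene. Of these, 45.5% in Mt2 also lie in the antisense gene Gm45774, 8.08% in Slc30a1 lie in 1700034H15Rik and 8.86% in Mtf1 in 1110065P20Rik. The last is counted in the deposited tables at 14.6 to 26.6 CPM, so a part of its reads and those of Mtf1 cannot be told apart.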

How the data were processed

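Reads were assigned with RSEM and Bowtie on genome build mm9, per the submitters' processing notes; versions and options are not given in the sources used here. The deposited expected counts and the deposited TPM values were used, both computed by RSEM per gene, per the file headers. Expected counts were rounded, and files were joined by transcript identifier because 25 gene names read as dates in most files. CPM values were scaled with TMM factors. The first fit used edgeR 4.0.16 in R 4.3.3 (filterByExpr, robust quasi-likelihood F test, 1 term per group over 12 libraries, Benjamini-Hochberg adjustment over 13936 genes, calls at an adjusted p under 0.05). DESeq2 1.42.0 was run beside it. An SE is the log2 change divided by the square root of F. The tests ran first on simulated data that held no effect of source or stage, so that run does not check the pairing.

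Pairing was checked from the deviations of libraries from their group means: same-numbered libraries correlated at 0.286 to 0.737 over the 15 pairs of groups (0.413 to 0.737 within a stage), and Y-linked reads parted the numbers throughout. Paired values use the replicate number within each stage. For day 4 against MEFs that block takes out the disagreement between the sources, so its p-values say nothing on how alike the 2 sources were.

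The members, lists, tests and fits were chosen with earlier results of these data known. Named were the 4 members, up to 4 called genes per list and comparison with the lowest paired p, the most abundant transporters, and the 5 genes most like Mt1 and Mt2. Alternatives were other scaling factors, DESeq2, no filter, blocks, fits of the compared groups alone and each library left out, the last also in the paired fit, which was added after seeing the data. Promoters came from a RefSeq table of build GRCm38.p6, which differs from mm9; no mm9 coordinates are given.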

Additional observations from a re-analysis of the deposited data

Results flagged for a closer look

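The change of Mt1 from MEFs to day 4 had opposite signs in the genotypes. In fl cells both pairs were positive on the log2 scale, at 1.92 and 0.16, and in AF10-deleted cells both were negative, at -0.26 and -1.40. The mean of the fl pairs was 1.87 above that of the AF10-deleted pairs. This difference was not tested, because it uses the MEF values by which Mt1 was chosen, and replicate 1 and replicate 2 differ in size in both genotypes. It rests on the Mt1 level of MEF_creAF10, where reads of Mt1 sequence in the Cre virus, if it holds any, cannot be told apart from those of the cells' own gene.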

How the results depend on the processing

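The 4 genes kept their direction in the 8 comparisons and, where tested, their side of the threshold in 189 of 192 values recomputed with all 12 libraries (relative log expression scaling, DESeq2, no filter, compared groups only, replicate block, replicate block per stage). The 3 that became called did so with the replicate block per stage: Mt1 and Mt2 for deletion in DMSO (0.54 and 0.56) and Mt2 for SGC0946 in fl cells (0.51). Calls over all genes moved by over 1.5 times in 6 comparisons; first fit, replicate block, block per stage and DESeq2 gave 0, 1, 939 and 12 for deletion in DMSO, 0, 0, 24 and 2 for deletion in SGC0946, 155, 806, 2470 and 307 for SGC0946 in fl cells, 1, 93, 1080 and 48 for SGC0946 after deletion, 0, 1, 55 and 2 for the interaction, and 0, 6, 134 and 18 for deletion in MEFs. Compared groups only gave 347 and 51 for SGC0946 in fl cells and after deletion. Leaving out 1 library in the first fit gave 1 to 5 calls (from 155) for SGC0946 in fl cells and 0 in each case (from 1) after deletion, 5358 to 6193 (from 7247) for day 4 against MEFs in fl cells and 5847 to 6749 (from 7665) after deletion, and 0 in the other comparisons. Leaving out 1 library without a block sets 1 source against both, and the log2 changes of these fits spread widely. Deletion in DMSO gave 0.17 to 0.96 for Mt1 and 0.13 to 0.99 for Mt2, and deletion in SGC0946 0.03 to 0.81 and -0.14 to 0.46. With SGC0946, fl libraries gave -0.25 to 0.63 for Mt1, 0.16 to 0.93 for Mt2, -0.09 to 0.04 for Mtf1 and -0.26 to 0.02 for Slc30a1. AF10-deleted ones gave -0.27 to 0.36, -0.26 to 0.50, -0.14 to 0.04 and -0.10 to 0.12. The interaction gave -0.59 to 0.28, -0.86 to 0.01, -0.12 to 0.07 and -0.01 to 0.27. In MEFs Mt2 was -0.03 to 0.66. With the block per stage, leaving out 1 library gave 0.46 to 0.61 for Mt1 and 0.48 to 0.63 for Mt2 (deletion in DMSO) and 0.44 to 0.58 for Mt2 (SGC0946 in fl cells). The cause of these shifts was not tested. With 2 libraries per group, the SE of a log2 change between 2 day 4 groups without the block was 0.44 for Mt1 and 0.38 for Mt2.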
